A study of Mus musculus with 6 samples.

Results

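The circadian clock genes of the mouse hippocampus were compared between Phf8 knockout (KO) and wild-type (WT) animals, with Dbp as the gene of interest among them. The list holds 10 genes. They are Dbp, Tef and Hlf (the PAR bZIP transcription factors), Nr1d1 and Nr1d2 (the Rev-erb receptors), Per1, Per2, Per3 and Cry1 (repressors) and Clock (an activator). All probe sets that the gene table of the array assigns to one of these symbols alone were taken, which gave 25 of 45037 probe sets on the array. The list was chosen by the KO against WT contrast of these same arrays, in which Dbp had the smallest p among the genes with a higher mean in KO. The differences of the members are therefore given as a description, and nothing is supported with them. Where limma counts include members, they are not read as a test of these genes.

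Hippocampus was taken from 3 KO and 3 WT samples at an age of 10 weeks, of the strain C57BL/6 as labelled, and each sample was hybridised to its own Affymetrix 3′ array. In the KO line the exons that encode the core of the JmjC demethylase domain of PHF8 were floxed and removed with EIIa-Cre, a Cre that acts from the early embryo, so all tissues lack them. According to the methods, the allele was made in another strain background and backcrossed to C57BL/6 J. The gene is X-linked, and according to the methods male hemizygous mice and their WT littermates were used. The methods leave it unclear if 1 mouse or a pool was put on an array, and the spread between arrays may be partly technical. Mice were housed under a daily cycle of light and dark. The time of day at which tissue was taken is not given in the sources used here, and so it cannot be set beside the values of genes that oscillate over the day.

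In the mammalian clock, CLOCK and its partner BMAL1 (the product of Arntl) bind E-box sequences and activate the Per and Cry genes, the Rev-erb genes and the PAR bZIP genes. PER and CRY proteins then repress CLOCK and BMAL1, and the Rev-erb receptors repress Arntl and Clock, which closes the loops. DBP, TEF and HLF bind D-box sequences and carry the rhythm on to output genes. The hippocampus has such a clock of its own, and mice that lack all of the PAR bZIP factors develop seizures.

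Promoter windows of 3 members are shown because they hold, or lack, the words through which these factors act on one another. Each window runs from 250 bases before to 50 bases after a transcription start (RefSeq, GRCm38.p6) and is printed 5′ to 3′ on the strand of the gene. Capitals mark an E-box (CACGTG) or a D-box (TTATGTAA or TTACGTAA), searched on both strands. The windows are chr7:45704997-45705296 on the plus strand for Dbp, chr4:151044616-151044915 on the minus strand for Per3 and chr15:81802423-81802722 on the plus strand for Tef, the first of 2 Tef windows in the table.
Dbp: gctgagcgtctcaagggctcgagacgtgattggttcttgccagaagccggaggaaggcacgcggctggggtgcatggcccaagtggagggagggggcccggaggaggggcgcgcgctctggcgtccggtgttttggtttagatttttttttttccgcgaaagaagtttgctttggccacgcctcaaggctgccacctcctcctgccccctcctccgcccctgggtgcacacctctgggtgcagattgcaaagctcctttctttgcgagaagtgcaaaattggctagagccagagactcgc
Per3: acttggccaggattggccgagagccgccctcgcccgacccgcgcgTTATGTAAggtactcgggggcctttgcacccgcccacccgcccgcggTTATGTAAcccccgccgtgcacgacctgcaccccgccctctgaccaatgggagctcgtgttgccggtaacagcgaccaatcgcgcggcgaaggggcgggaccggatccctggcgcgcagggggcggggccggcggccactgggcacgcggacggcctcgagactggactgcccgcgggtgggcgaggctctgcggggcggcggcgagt
Tef: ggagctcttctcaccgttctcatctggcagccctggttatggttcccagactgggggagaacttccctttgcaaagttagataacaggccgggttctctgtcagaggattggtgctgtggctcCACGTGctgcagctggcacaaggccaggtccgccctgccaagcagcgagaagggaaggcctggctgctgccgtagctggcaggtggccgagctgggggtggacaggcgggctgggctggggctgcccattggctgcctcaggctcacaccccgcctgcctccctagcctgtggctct

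The window of Dbp held neither word. That of Per3 held 2 D-boxes, whose first bases lie at -205 and -158 from the start. That of Tef held an E-box at -127. Of the 10 members, 9 had a window in the table (13 windows in all). An E-box was found in windows of Cry1, Per1 and Tef, and a D-box in that of Per3 alone. Of all 32851 windows of this length, 7.15% held the E-box and 1.06% held a D-box. Counted by gene, as for the members, the shares were 8.09% and 1.23% of 27025 genes. A match is a match of letters and no evidence of binding, and these windows do not reach into introns, where E-boxes of Dbp are known to lie.

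As a check of the labels, Phf8 itself lay lower on each KO array. The bright Phf8 probe set had log2 signals of 8.23, 8.55 and 7.99 in KO replicates 1, 2 and 3 and of 9.90, 9.66 and 9.73 in WT replicates 1, 2 and 3. Whether this probe set lies in the deleted exons was not analysed here. A filter on dim probe sets required, on 3 or more arrays, a signal over the array's 40th percentile (a log2 signal of 5.73 to 6.05), and where a gene had several probe sets that passed, the brightest stands for it. Across genes, which are not independent replicates, KO replicate 3 correlated with the other arrays at 0.925 to 0.940, whereas the lowest correlation among the other 5 was 0.976. On that array the median of 10 thalamus markers lay 2.59 above the WT mean on the log2 scale, and Tcf7l2, one of these markers, had 11.50 there against 7.99 to 8.28 in WT. The median of 7 CA1 markers lay 0.35 below the WT mean on it. Differences are therefore also given without KO replicate 3 where that moves them most.

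Dbp was higher in the KO hippocampus on both of its probe sets. Dbp encodes a D-box activator whose transcript is among the most strongly rhythmic in many tissues. The brighter probe set had log2 signals of 11.58, 11.60 and 11.73 in KO replicates 1, 2 and 3, against 10.86, 10.93 and 10.90 in WT replicates 1, 2 and 3. The lowest KO array lay 0.65 above the highest WT array, so the groups were well apart. The mean was 11.64 ± 0.08 (SD, n = 3) in KO and 10.90 ± 0.04 (SD, n = 3) in WT, a difference of 0.74 on the log2 scale or a fold of 1.68.

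The second Dbp probe set had 10.31, 9.88 and 10.52 in KO replicates 1, 2 and 3, against 9.51, 9.46 and 9.54 in WT replicates 1, 2 and 3. All KO arrays again lay above all WT arrays, but they spread more. The difference was 0.73, or a fold of 1.66, with an SD of 0.33 in KO and 0.04 in WT (n = 3 each). Without KO replicate 3 the differences of the 2 probe sets were 0.70 and 0.59, so Dbp did not owe its size to that array. Leaving out each array in turn gave 0.70 to 0.77 for the brighter probe set.

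Dbp overlaps the 3′ end of a neighbouring gene, Sphk2, which encodes a sphingosine kinase and lies on the opposite strand. In GRCm38.p6 Dbp spans chr7:45705100-45710203 and shares 741 bases with Sphk2. The brighter Sphk2 probe set had 8.49, 8.15 and 7.66 in KO replicates 1, 2 and 3, against 8.47, 8.47 and 8.76 in WT replicates 1, 2 and 3, and a dimmer one differed by 0.10. Car11, the gene on the other side of Dbp, had 9.66, 9.10 and 11.25 in KO replicates 1, 2 and 3, against 9.85, 9.65 and 9.70 in WT replicates 1, 2 and 3. Neither neighbour was higher on all KO arrays as Dbp was. The part of either neighbour in the signal of Dbp was not tested.

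**Figure D1:**
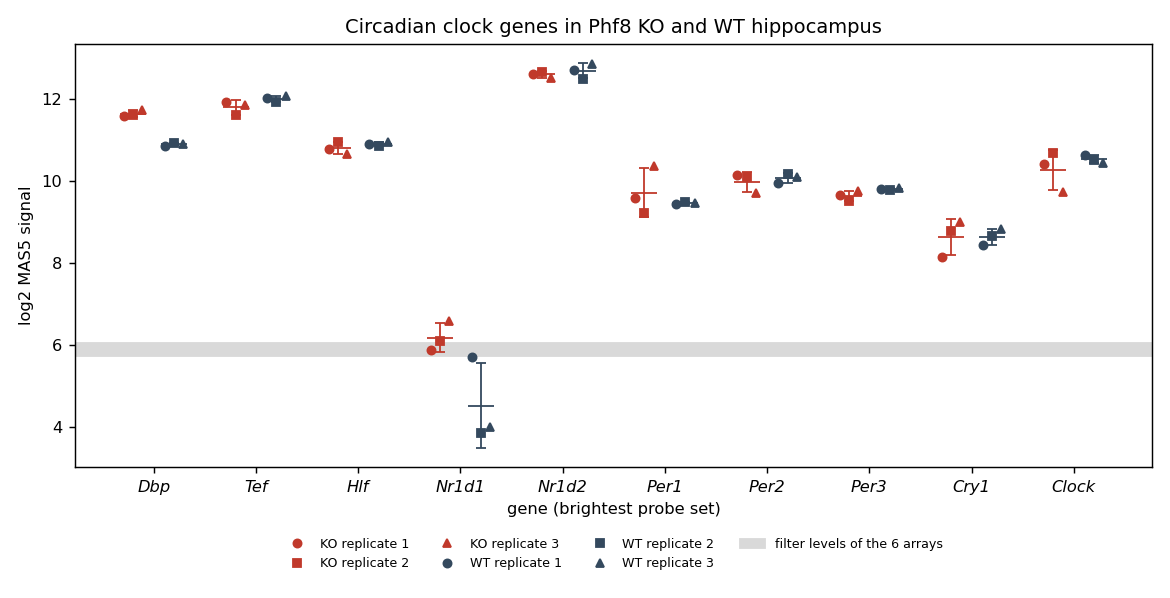
Log2 MAS5 signal (y axis) of the brightest probe set of each of the 10 clock genes (x axis) on each array, KO left of WT, with the mean (bar) and SD (whiskers, n = 3) of each group and the filter levels of 5.73 to 6.05 in grey. Dbp lies at 11.58 to 11.73 in KO and at 10.86 to 10.93 in WT, the groups of the other members above the filter lie closer together, and Nr1d1, which did not pass the filter, exceeds its level on KO replicates 2 and 3 alone.

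The paralogs of Dbp did not show its difference. Tef had 11.93, 11.59 and 11.85 in KO replicates 1, 2 and 3, against 12.01, 11.92 and 12.07 in WT replicates 1, 2 and 3. The difference was -0.21 (standard error 0.11), and KO replicate 1 lay above the lowest WT array. Of its dimmer probe sets, one was higher on average in KO by 0.25 and one, near the filter, lower by 0.23. Without KO replicate 3 these differences were 0.05 and -0.73.

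Hlf had 10.78, 10.95 and 10.67 in KO replicates 1, 2 and 3, against 10.89, 10.84 and 10.94 in WT replicates 1, 2 and 3. The groups overlapped, with a difference of -0.09 (standard error 0.11). A second Hlf probe set differed by 0.09, or by -0.08 without KO replicate 3, and its highest array was KO replicate 3, at 10.71. Relative to WT, Dbp thus stood 0.95 above Tef and 0.84 above Hlf on the log2 scale.

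The Rev-erb genes, which are E-box targets like Dbp, could be read for only one of the pair. Nr1d2, the gene of REV-ERBβ, had 12.61, 12.66 and 12.51 in KO replicates 1, 2 and 3, against 12.71, 12.48 and 12.85 in WT replicates 1, 2 and 3. The groups overlapped, with a difference of -0.09. A dimmer Nr1d2 probe set had 8.33, 7.70 and 5.04 in KO replicates 1, 2 and 3, against 8.08, 8.21 and 8.21 in WT replicates 1, 2 and 3. Its difference of -1.14 came down to -0.15 without KO replicate 3, so it rests on that array.

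Nr1d1, the gene of REV-ERBα, had a single probe set, and it did not pass the filter. It had 5.87, 6.09 and 6.58 in KO replicates 1, 2 and 3, against 5.72, 3.86 and 3.99 in WT replicates 1, 2 and 3. The filter level was exceeded on KO replicates 2 and 3 alone. All KO arrays lay above all WT arrays, by a gap of 0.16 that separates KO replicate 1 from WT replicate 1. With signals at background no fold is given, and Nr1d1 is left out of the counts below.

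Per1, which responds quickly to neuronal activity and glucocorticoids besides the clock, was uneven over the KO arrays. It had 9.58, 9.20 and 10.36 in KO replicates 1, 2 and 3, against 9.43, 9.48 and 9.47 in WT replicates 1, 2 and 3. The difference was 0.26 with all arrays and -0.07 without KO replicate 3. Of 12 glucocorticoid-responsive genes, 11 were lower on average in KO, but their median shift from WT, too, was highest on KO replicate 3, at 0.24, while KO replicates 1 and 2 had -0.28 and -0.24. The part of either in the other was not tested.

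Per2 had 10.14, 10.09 and 9.69 in KO replicates 1, 2 and 3, against 9.95, 10.17 and 10.09 in WT replicates 1, 2 and 3. The groups overlapped, and the difference was -0.10, or 0.05 without KO replicate 3. A second kept probe set of Per2 was higher on average by 0.24, or by 0.04 without KO replicate 3, and a dim one lay below the filter.

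Per3 had the most probe sets of the members, 6, and the 5 that passed the filter had lower means in KO. The brightest had 9.65, 9.51 and 9.74 in KO replicates 1, 2 and 3, against 9.80, 9.78 and 9.83 in WT replicates 1, 2 and 3. Its KO arrays lay below its WT arrays by a gap of only 0.04, with a difference of -0.17 (standard error 0.12), or -0.22 without KO replicate 3. The differences of these 5 ran from -0.37 to -0.08, and in 3 of them every KO array lay below every WT array. The sixth probe set was under the filter level on every array, with a higher mean in KO, and is not read. They report on 1 transcript locus and are not independent. Per3 is the member whose promoter window, shown above, carries 2 D-boxes.

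Cry1, the gene of a potent repressor of CLOCK and BMAL1, had nearly equal means. It had 8.15, 8.77 and 8.995 in KO replicates 1, 2 and 3, against 8.42, 8.66 and 8.82 in WT replicates 1, 2 and 3. The difference was 0.00 (standard error 0.24), or -0.18 without KO replicate 3, with an SD of 0.44 in KO and 0.20 in WT (n = 3 each).

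Clock itself was lower on average in KO on all 4 of its probe sets. The brightest had 10.41, 10.67 and 9.73 in KO replicates 1, 2 and 3, against 10.63, 10.50 and 10.45 in WT replicates 1, 2 and 3. Its difference of -0.25 vanished without KO replicate 3, where it was 0.02. A second, nearly as bright, had 10.26, 10.34 and 9.90 in KO replicates 1, 2 and 3, against 10.55, 10.65 and 10.63 in WT replicates 1, 2 and 3, with no overlap. Its difference was -0.44, or -0.31 without KO replicate 3, and the 2 remaining probe sets differed by -0.08 and -0.25 with overlap.

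**Figure D2:**
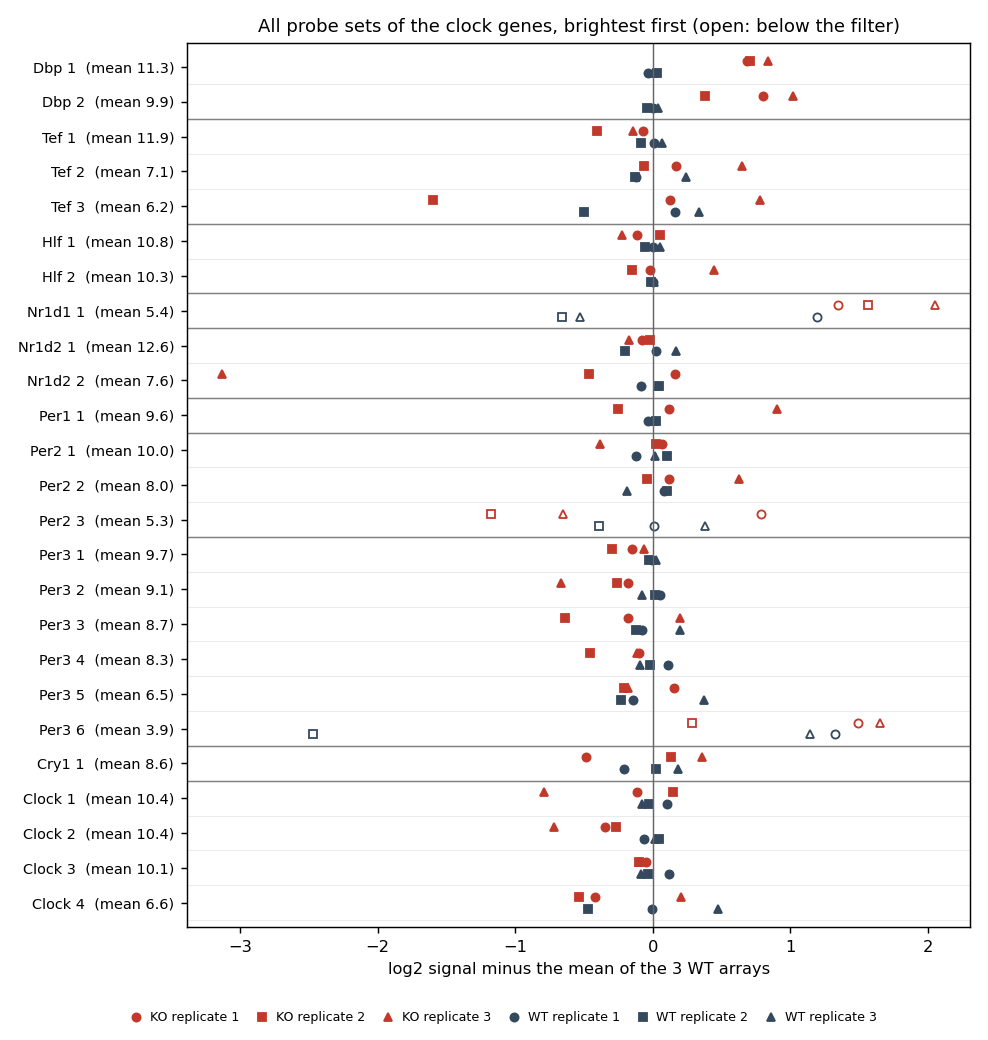
Log2 signal of each of the 25 probe sets of the clock genes minus its mean over the 3 WT arrays (x axis), with the probe sets of a gene numbered from the brightest and their mean over 6 arrays in parentheses. KO arrays are drawn in red above WT arrays in dark blue, and open symbols mark the 3 probe sets below the filter. Both Dbp probe sets have their KO arrays right of all WT arrays, the 5 kept Per3 probe sets lie to the left on average, and KO replicate 3 lies far left for the dimmer Nr1d2 probe set.

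Counted over genes, 9 members passed the filter, of which 3 (Dbp, Per1 and Cry1) had a higher and 6 a lower mean in KO. Their median difference was -0.09, beside 0.01 over all 12903 genes. Without Dbp the 8 others lay between -0.25 and 0.26 on their brightest kept probe sets, beside 0.74 for Dbp. Over all kept probe sets of these 8, differences ran from -1.14, on the dimmer one of Nr1d2, to 0.26. Dbp was chosen for its difference, so nothing is read from its distance to the others. Over all genes, 294 had a difference at least as large as Dbp (itself included), and 12 had a gap between the lowest KO and the highest WT array at least as wide.

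One member, Dbp, had a fold of at least 1.5 higher in KO, as had 4.15% of all genes. Every KO array lay above every WT array for 1 member (9.56% of all genes) and below for 1, Per3 (7.13% of all genes). Over the 22 kept probe sets of members, these numbers were 2 and 4, beside 7.37% and 7.83% of all 27408 kept probe sets. In limma with Benjamini-Hochberg adjustment over all genes, 0 of the 9 members and 0.062% of all genes (8, all lower in KO) passed an adjusted p of 0.05. At an unadjusted p under 0.05 there was 1 member, Dbp, beside 7.48% of all genes. Without KO replicate 3, 53 genes passed, and Dbp was 1 of 13 higher ones, whereas leaving out any other array gave 0 or 1 gene. Since the same contrast chose the members, nothing is read from these counts or from that call of Dbp.

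Within each genotype, the other members lay on the same side of their own group mean as Dbp on some arrays and on the opposite side on others. The small spread of Dbp is part of what chose it, since a small p requires one, and its largest deviation from the mean of its own group was 0.09, on KO replicate 3. On that array 4 of the 8 other kept members also lay above their KO mean, with Per1 at 0.65 above and Clock at 0.54 below. On KO replicates 1 and 2, where Dbp lay 0.06 and 0.04 below its KO mean, 3 of 8 did so too. On WT replicates 1, 2 and 3, the number on the same side as Dbp was 4, 3 and 7 of 8, with Dbp only 0.002 above its WT mean on WT replicate 3. With 3 arrays a group no correlation is given.

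Of the other genes of the clock pathway, listed by function, 23 of 31 were tested, and none passed in limma over all genes. Of these, 8 had a higher and 15 a lower mean in KO, with a median difference of -0.11, while 51.9% of all genes had a higher mean in KO. At an unadjusted p under 0.05 there was 1 of the 23, beside 7.48% of all genes. The lowest adjusted p was 0.659. These lists were written with earlier results of the arrays known.

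That single gene was Arntl, whose product BMAL1 is the partner of CLOCK. It had 9.32, 9.45 and 9.45 in KO replicates 1, 2 and 3, against 9.82, 9.64 and 9.64 in WT replicates 1, 2 and 3. Every KO array lay below every WT array, with a difference of -0.29 (standard error 0.12, unadjusted p = 0.0432, adjusted p = 0.659 in limma), or -0.31 without KO replicate 3. These values are of its brighter probe set. On a dimmer kept one the groups overlapped, with a difference of -0.54, or -0.81 without KO replicate 3, and an SD of 0.78 in KO. The brighter probe set of Npas2, a paralog of Clock that can replace it in the forebrain, had higher signals in KO, with 8.45, 8.59 and 8.94 in KO replicates 1, 2 and 3, against 8.05, 8.37 and 8.45 in WT replicates 1, 2 and 3. Every KO array lay above every WT array, but by a gap of only 0.0015, with a difference of 0.37 (adjusted p = 0.673 in limma), and 0.23 without KO replicate 3. A second, dimmer probe set of Npas2 went against it, with a difference of -0.29, or -0.73 without KO replicate 3, and overlapping groups, so no direction is given for Npas2. Arntl2, dim on these arrays, differed by -0.52, or -0.18 without that array.

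Among other repressors and modulators, 4 of 5 tested genes had a lower mean in KO and none passed. Bhlhe40 and Bhlhe41, the DEC repressors at E-boxes, differed by -0.32 and -0.47, or by -0.07 and -0.16 without KO replicate 3. Cry2 had 9.33, 8.06 and 10.11 in KO replicates 1, 2 and 3, against 9.44, 9.25 and 9.20 in WT replicates 1, 2 and 3. Its KO arrays spread over 2 units and lay on both sides of WT, so that its difference of -0.13 (-0.60 without KO replicate 3) lies well within the spread. Ciart, a further repressor under E-box control, differed by 0.14, or by -0.02 without KO replicate 3.

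Rora and Rorb, receptors that activate where Rev-erbs repress, had higher means in KO, by 0.51 and 0.22, and neither passed in limma. Rora had 10.04, 10.20 and 11.58 in KO replicates 1, 2 and 3, against 9.99, 9.99 and 10.29 in WT replicates 1, 2 and 3. Without KO replicate 3 the difference of Rora was 0.03 and that of Rorb 0.11. Both receptor genes are known to be strongly expressed in the thalamus, whose markers are highest on that array. The part of these in the difference was not tested. Nfil3, which represses at the D-boxes that DBP activates, had 8.18, 7.54 and 8.48 in KO replicates 1, 2 and 3, against 7.96, 8.17 and 7.998 in WT replicates 1, 2 and 3, a difference of 0.02, or -0.19 without KO replicate 3.

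Enzymes that set the stability of PER and CRY had lower means in 5 of 7 tested genes, none past the threshold. The brightest probe set of Fbxw11, a subunit of the ubiquitin ligase that targets PER, differed by -0.17 (adjusted p = 0.669 in limma). Its KO arrays lay below its WT arrays by a gap of 0.01. On the other kept Fbxw11 probe sets the groups overlapped, with differences from -0.56 to 0.13. Gsk3b, a kinase gene, differed by -0.35 on its brightest probe set, but by -0.06 without KO replicate 3. Its other kept probe sets differed by -0.09 to 0.37. The casein kinase genes Csnk1d and Csnk1e, whose products phosphorylate PER, differed by -0.12 and 0.04 on their brightest probe sets. Other kept Csnk1d probe sets differed by -0.24 to 0.34.

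Of 5 tested output genes, 4 had a lower and 1 a higher mean in KO on the brightest probe set, all between -0.11 and 0.09. Dimmer kept probe sets went further, with -0.35 for Alas1, -0.36 for Wee1, -0.30 and -0.48 for Nampt and 0.16 for Pdxk. Every KO array lay below every WT array on those of Alas1 and Wee1, as on 7.83% of all kept probe sets. Pdxk, the pyridoxal kinase gene and a target of the PAR bZIP factors in mouse brain, had 11.28, 11.25 and 11.96 in KO replicates 1, 2 and 3, against 11.41, 11.33 and 11.47 in WT replicates 1, 2 and 3. The difference was 0.09 (adjusted p = 0.902 in limma), or -0.14 without KO replicate 3. KO replicates 1 and 2 thus lay below every WT array for Pdxk and above every WT array for Dbp. Over all 5 functional lists, every KO array lay above every WT array for 1 gene (9.56% of all genes) and below for 2 (7.13% of all genes).

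**Figure D3:**
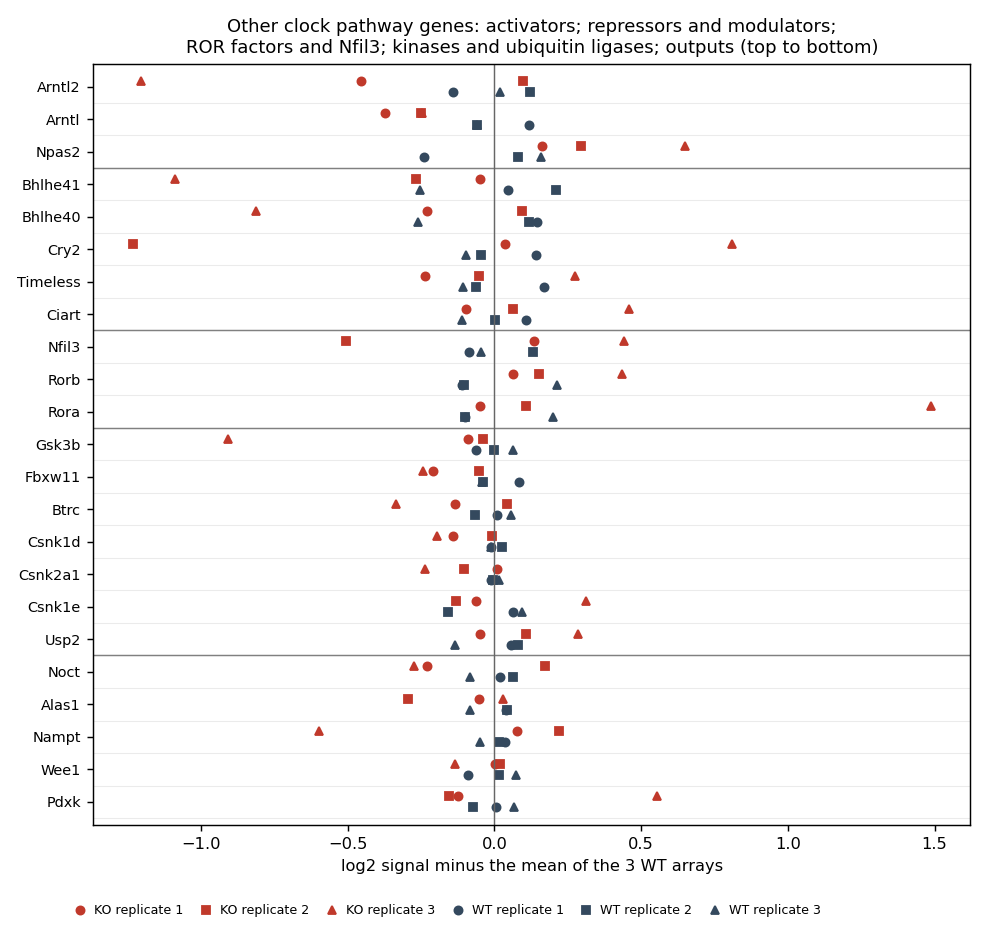
Log2 signal of 23 other clock pathway genes minus the mean over the 3 WT arrays (x axis), by functional list, with KO arrays in red above WT arrays in dark blue and symbols for the replicate. Arntl has all KO arrays left of all WT arrays, and the outlying red triangles of Rora, Gsk3b, Bhlhe40, Bhlhe41 and Arntl2 are KO replicate 3.

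The 6 genes whose profile over the 6 arrays was most like that of Dbp were not among the listed clock genes. The profile of Dbp is mostly its difference between the genotypes, for which it was chosen, so likeness largely repeats that difference. Clock genes are also few among all genes ranked, so nothing is read from their absence here. Likeness was the root mean square difference of log2 signals after each gene was centred on its own mean, over 12902 other genes. The nearest were Aebp1 (0.05), Metrnl (0.06), Tril (0.06), Tlcd1 (0.07), Fras1 (0.08) and Ghr, the growth hormone receptor gene (0.09). Aebp1 had 7.34, 7.44 and 7.45 in KO replicates 1, 2 and 3, against 6.68, 6.78 and 6.76 in WT replicates 1, 2 and 3. Of the clock genes tested, the nearest was Npas2, at rank 462 (0.24), and the nearest member Per1, at rank 4612 (0.39). Hlf and Tef stood at ranks 6852 and 8726.

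Some markers of other cells moved along with genotype as Dbp did. The 4 measured erythrocyte markers were all lower in KO, with a summed signal of 119.9 to 233.7 units on the KO arrays and of 1825 to 2076 on the WT arrays, and Alas2, which encodes the heme synthesis enzyme of red cells, had 6.63, 4.62 and 4.65 in KO replicates 1, 2 and 3, against 10.43, 10.39 and 10.15 in WT replicates 1, 2 and 3. All 6 ependyma markers were higher on average in KO, with a median of 0.76, 0.41 and 1.20 above the WT mean on KO replicates 1, 2 and 3 and of -0.06, 0.34 and -0.27 on WT replicates 1, 2 and 3. Their summed signals overlapped, at 1691 to 3345 units in KO and 1044 to 1711 in WT, so the separation depends on the measure. Of 6 meninges and fibroblast markers, 5 were higher, with summed signals of 17904 to 22512 in KO and 13333 to 16147 in WT. Of 5 endothelial markers, 4 were higher, with summed signals of 6741 to 8865 in KO and 6106 to 6559 in WT, though their medians overlapped. Astrocyte medians, too, lay apart, by little, at 0.05 to 0.11 in KO and -0.04 to -0.02 in WT, while the summed signals of these 6 markers overlapped. The part of all these markers in the difference of Dbp was not tested. In bulk tissue, a change in the share of a cell type and a change in RNA per cell cannot be told apart.

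All 10 thalamus markers were higher on average in KO, but their summed signal was 6940, 6599 and 37139 units on KO replicates 1, 2 and 3, against 4798 to 5400 on the WT arrays, while Dbp stood 0.69, 0.71 and 0.84 above its WT mean on the same KO arrays. Choroid plexus medians ran from -1.57 to 1.31 over the KO arrays, and those of the WT arrays, too, lay on both sides of 0. Markers of the dentate gyrus were lower for 7 of 8 in KO. Their medians lay at -0.41 to -0.21 on the KO arrays and at -0.17 to 0.14 on the WT arrays, without overlap. The summed dentate signals overlapped, at 14523 to 16721 units in KO and 16493 to 19522 in WT. Of the CA1 and of the CA3 markers, 7 each were measured, with 3 higher and 4 lower on average in KO. The summed CA1 signal was 7918 units on KO replicate 3, against 13065 to 15377 on the other arrays.

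**Figure D4:**
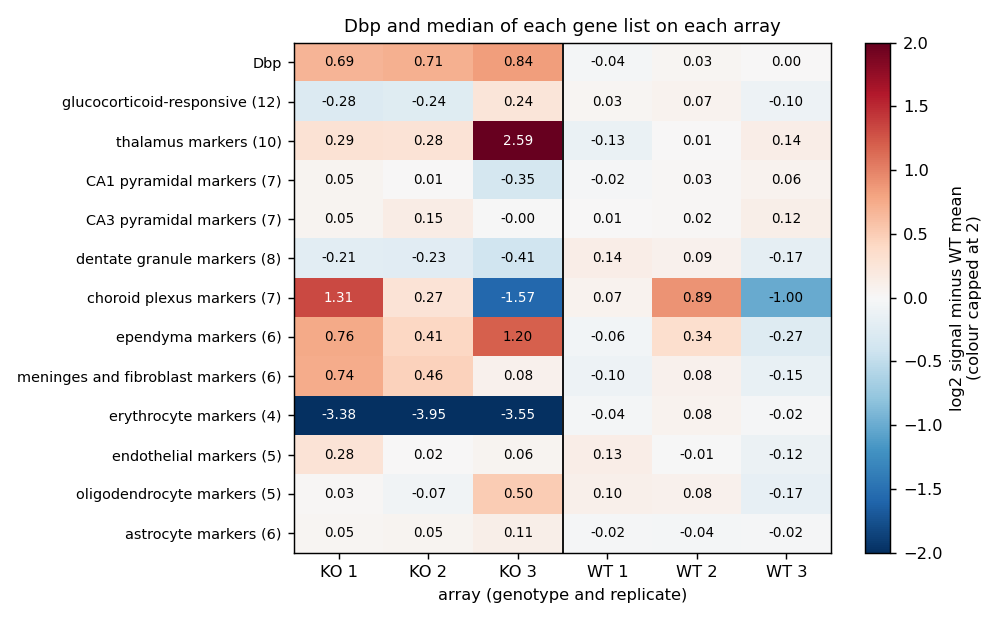
Dbp (top row) and the median of each gene list (rows, number of genes measured in parentheses) on each array (columns, KO left of WT), as log2 signal minus the WT mean. Dbp stands at 0.69 to 0.84 on the KO arrays, the thalamus markers at 2.59 on KO replicate 3, and the erythrocyte markers between -3.95 and -3.38 on the KO arrays.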

How the data were processed

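Gene expression was measured in hippocampus of 3 Phf8 KO and 3 WT samples on Affymetrix mouse 3′ arrays, 1 array each. The deposited values are log2 MAS5 signals per probe set, which the authors scaled to a common mean (497.5 to 498.2 on the linear scale with 2% of probe sets trimmed at each end). MAS5 and affy are named in the notes of the submitters on processing, and GeneSpring in the methods, with a filter on Absent calls, without versions. Detection calls were not used here. In place of that filter, 27408 of 45037 probe sets were kept, those with a signal over the 40th percentile of the array on 3 or more of the 6 arrays. Of all probe sets, 34945 have a single symbol in the array's gene table, 932 several and 9160 none. All 10 members matched RefSeq (GRCm38.p6) by gene identifier.

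The difference KO minus WT came from limma 3.58.1 (R 4.3.3; lmFit, then eBayes with trend) over 12903 genes, each by its brightest kept probe set, and over all kept probe sets, with Benjamini-Hochberg adjustment. A fold is 2 to the power of the difference of mean log2 signals. The fit was tested on simulated data first. Alternatives were quantile normalization, median centring, other filters, an offset of 2.8 signal units before log2, weights for arrays, a block for the replicate number, a variance without trend, the mean of all kept probe sets of a gene, and leaving out each array. Members and lists were chosen with earlier results of these data known. Named are all members, the other clock genes with the smallest p and defining partners, and the 6 genes most like Dbp. Further clock genes and markers, and Sphk2 and Car11, were named after their values were seen. With 3 arrays a group, their number limits the precision.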

Additional observations from a re-analysis of the deposited data

How the results depend on the processing

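With each array left out in turn, the number of genes passing an adjusted p of 0.05 in limma ran from 0 to 53 and that of probe sets from 0 to 64, against 8 and 6 with all arrays. The counts of probe sets under other settings were added after seeing the data. The highest counts came without KO replicate 3, and without either WT replicate 1 or 2, or KO replicate 2, no gene passed (396, 558 and 1647 at an unadjusted p under 0.05). Array weights, estimated gene by gene since the REML estimate did not converge, gave 115 genes and 102 probe sets. A variance without trend gave 0 and 0 in limma (980 genes at an unadjusted p under 0.05), and no filter gave 1 probe set. The replicate number as a block gave 4 genes and 2 probe sets. The labels do not pair KO with WT samples by that number, and deviations of equal-numbered arrays correlated at -0.04, 0.07 and 0.13, with the highest correlation, 0.20, between KO replicate 1 and WT replicate 2. The number of other clock genes that passed was 0 in all settings (limma; 0 to 4 at an unadjusted p under 0.05).

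Dbp kept a difference of 0.70 to 0.77 with single arrays left out. The median of the members, -0.09 with all arrays, ran from -0.12 to -0.05 with single arrays left out, and was 0.00 with the mean of all kept probe sets of a gene, where Nr1d2 had -0.62 and Tef -0.06. Members other than Dbp moved with KO replicate 3 as given above. Dbp passed in limma over all genes without KO replicate 3 and with array weights, and in no other setting tried. Since this contrast chose Dbp, these passes are no support for its difference.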
